A study of Mus musculus with 24 samples.

Results

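The gene families that steer growing axons were examined in cultured mouse muscle cells, as cues that muscle could present to nerve. Members were taken by gene symbol, as every semaphorin of classes 3 to 7, plexin, neuropilin, ephrin, Eph receptor, netrin, Slit, Robo and Unc5 gene with a probe set that names it alone. This gave 67 of the 19938 genes tested. They comprised 35 ligands (20 semaphorins, 8 ephrins, 4 netrins and 3 Slits) and 32 receptors (13 Eph receptors, 9 plexins, 4 Robo receptors, 4 Unc5 receptors and 2 neuropilins). The Eph receptor gene Ephb2 is absent, since no probe set names it. For the 5 members with more than 1 probe set (Epha10, Ephb1, Sema4d, Sema6b and Unc5d) the set with the highest mean signal was used.

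The study asked whether MuSK, the receptor tyrosine kinase of the neuromuscular synapse, alters the response of muscle cells to bone morphogenetic protein 4 (BMP4), before and after differentiation. There were 24 arrays in 8 groups of 3, which were untreated and BMP4-treated myoblasts and myotubes of a wild-type line (H-2Kb-tsA58) and of a MuSK-null line (MuSK-/-). Both lines are immortalised myoblasts, H-2Kb-tsA58 being the temperature-sensitive large T antigen transgene that interferon-γ induces, and the myoblasts of both were grown with interferon-γ at 33 °C. Myotubes were made from confluent myoblasts in horse serum medium at 37 °C over 3 days, so stage, serum, interferon and temperature change together. BMP4 was given at 25 ng/ml for 8 h. Myoblasts were deprived of serum for 4 h before BMP4 and myotubes were not. Deprivation of the untreated myoblasts is not mentioned, so serum and BMP4 cannot be told apart in the myoblast comparisons. Each genotype is 1 cell line, so genotype and line cannot be told apart. The labels call the 3 samples of a group biological replicates without saying whether they were separate cultures. The p-values here thus rest only on the spread between arrays within groups, possibly a technical one. This spread is pooled over the 8 groups and moderated across genes.

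Axon guidance cues are secreted or cell-surface ligands that attract or repel the growing tip of an axon. Class 3 semaphorins are secreted and act through neuropilin and plexin complexes, the membrane-bound semaphorins mostly bind plexins directly, and ephrins and Eph receptors signal in both directions between touching cells. Slits repel axons through Robo receptors, and netrins repel them through Unc5 receptors. In skeletal muscle, ephrin-A ligands take part in the mapping of motor axons onto muscles, and muscle precursor cells secrete Sema3a. A change in a receptor mainly concerns what the muscle cell itself can sense, and a change in a ligand what it can show to a nerve. For ephrins and Eph receptors, which signal both ways, a change in either can concern both.

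The members whose results stand out below were Unc5b, Unc5c, Sema6d and Efna3, which BMP4 raised in all 4 kinds of culture, and Ntn5 and Epha3, whose changes on differentiation differed most between the lines together with Sema4d. Their promoters are shown so that the 4 members that BMP4 raised can be compared letter by letter. The same holds for Ntn5 and Epha3, which rose on differentiation in different lines. Each is the stretch before the RefSeq gene start (GRCm38.p6), 5′ to 3′ on the gene's own strand, 250 bases long, or 224 bases for Sema6d, where the rest of the window lies inside the annotated gene. In the first 4, capitals mark GGCGCC or CAGAC, a GC-rich and a short SMAD-binding element, searched on both strands. In the last pair, capitals mark CANNTG, the E-box bound by myogenic factors, also on both strands.
Unc5b (chr10:60831582-60831831, minus strand): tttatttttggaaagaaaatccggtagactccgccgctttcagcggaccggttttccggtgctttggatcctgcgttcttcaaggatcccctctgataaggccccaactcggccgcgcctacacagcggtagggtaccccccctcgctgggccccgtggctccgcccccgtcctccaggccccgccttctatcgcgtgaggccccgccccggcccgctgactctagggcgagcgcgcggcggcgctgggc
Unc5c (chr3:141465314-141465563, plus strand): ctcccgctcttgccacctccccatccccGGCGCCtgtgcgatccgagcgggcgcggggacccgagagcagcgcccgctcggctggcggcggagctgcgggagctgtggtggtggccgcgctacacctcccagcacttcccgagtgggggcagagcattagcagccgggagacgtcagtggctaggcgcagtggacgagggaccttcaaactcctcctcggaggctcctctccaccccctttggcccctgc
Sema6d (chr2:124089719-124089942, plus strand, of 2 listed starts): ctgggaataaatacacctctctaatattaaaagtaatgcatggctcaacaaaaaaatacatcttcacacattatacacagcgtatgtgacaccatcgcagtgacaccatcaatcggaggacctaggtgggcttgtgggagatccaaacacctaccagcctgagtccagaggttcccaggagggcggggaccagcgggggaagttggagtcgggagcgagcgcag
Efna3 (chr3:89322940-89323189, minus strand, of 2 listed starts): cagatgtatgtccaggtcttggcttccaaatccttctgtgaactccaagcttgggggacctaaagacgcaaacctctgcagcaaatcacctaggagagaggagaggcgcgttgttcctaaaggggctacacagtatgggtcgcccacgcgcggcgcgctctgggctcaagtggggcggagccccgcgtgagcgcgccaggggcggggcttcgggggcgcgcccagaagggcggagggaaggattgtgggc
Ntn5 (chr7:45683772-45684021, plus strand): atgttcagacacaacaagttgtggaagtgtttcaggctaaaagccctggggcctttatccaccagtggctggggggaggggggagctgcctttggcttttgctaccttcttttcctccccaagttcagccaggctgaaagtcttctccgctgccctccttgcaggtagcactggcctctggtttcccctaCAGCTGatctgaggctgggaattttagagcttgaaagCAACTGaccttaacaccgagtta
Epha3 (chr16:63864176-63864425, minus strand): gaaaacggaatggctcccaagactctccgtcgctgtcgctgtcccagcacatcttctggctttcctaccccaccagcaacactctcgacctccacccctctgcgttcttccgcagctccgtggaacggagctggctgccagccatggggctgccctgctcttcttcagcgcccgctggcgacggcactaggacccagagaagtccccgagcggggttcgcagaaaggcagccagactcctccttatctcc
Of the 4 genes raised by BMP4, 1 (Unc5c) held 1 GGCGCC in its window and none held CAGAC. Ntn5 held 2 E-boxes and Epha3 held 0. No match overlapped another. Over the full 250 bases before every listed start, GGCGCC was found for Unc5c and Efna3 and CAGAC for Sema6d and Efna3 (2 of the 4 genes each). Over the same stretches of 250 bases, GGCGCC was in 9.59% of all 32851 promoters listed, CAGAC in 42.2% and CANNTG in 66.2%. Promoters were listed for 58 of the 67 members, in 74 windows, of which 20.3% held GGCGCC, 51.4% CAGAC and 47.3% CANNTG.

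The deposited values are log2 signals, between 2.50 and 15.03 over all probe sets. Within a group the SD of a member was 0.105 log2 units in the median, against 0.114 for all genes. In 4 myoblast arrays, 1 in each myoblast group (replicate 2 of both untreated groups and of BMP4-treated MuSK-null, replicate 3 of BMP4-treated wild type), deviations from the group means were shared, with correlations of 0.421 to 0.544 over genes. Myoblast results are therefore given with and without these 4 arrays where they differ. Musk itself had a mean signal of 11.57 in untreated wild-type and 10.85 in untreated MuSK-null myoblasts, and of 12.72 and 11.22 in the untreated myotubes. It was thus lower in the MuSK-null line by 0.72 and 1.51 log2 units (both called) but not below the dim level of 6.34. The position of its probes relative to the deleted part is not known here, so this signal does not check the labels. All 11 skeletal muscle markers were above the dim level in every group. This level, 6.34 log2 units, is the 25th percentile of gene means and not a measured background. Markers of other cell types lay on both sides of it. Elavl4 and Snap25 (2 of 5 neuron markers), Kdr and Tek (2 of 4 endothelial markers), Adgre1 and Ptprc (2 of 4 macrophage markers) and Adipoq (1 of 3 adipocyte markers) were below it in every group. Tubb3 (group means of 6.95 to 8.12), Syp (7.12 to 7.28), Rbfox3, Pecam1, Cdh5 and Cd68 (7.21 to 8.12) were above it in every group, as were all 3 Schwann cell markers (Erbb3 from 7.21 to 11.71) and all 3 smooth muscle markers (Cnn1 from 7.71 to 10.61). Over arrays the mean of a list ran from 6.49 to 6.80 for neurons, 6.20 to 6.43 for endothelium, 6.02 to 6.46 for macrophages, 7.10 to 8.66 for Schwann cells and 8.38 to 9.55 for smooth muscle.

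The mean of the 11 muscle markers differed between groups of myoblasts, and less between groups of myotubes. In myoblasts it ran from 12.23 to 12.24 log2 units on the untreated wild-type arrays and 12.09 to 12.14 with BMP4. It was 10.46 to 10.52 in untreated and 10.11 to 10.22 in BMP4-treated MuSK-null myoblasts. Untreated myotubes had 13.20 to 13.24 in wild type and 13.07 to 13.08 in the MuSK-null line. There 8 of the 11 were called lower and 1 higher in MuSK-null cells (18.0% and 19.4% of all genes). BMP4-treated myotubes had 13.20 to 13.23 in wild type and 13.11 to 13.14 in the MuSK-null line. The mean of 6 fibroblast markers ran from 8.41 to 8.87 on wild-type arrays and from 9.25 to 10.24 on MuSK-null arrays. Single markers went against these means. Myf5 was higher in untreated MuSK-null than in untreated wild-type myoblasts (12.25 against 10.42), while 10 muscle markers were called lower. Thy1, a fibroblast marker, was lower in the untreated MuSK-null cells (7.19 against 7.67 in myoblasts, 7.07 against 8.19 in myotubes). Lum had means of 4.36 and 4.47 in untreated MuSK-null and wild-type myoblasts. In untreated myotubes it went with the fibroblast mean, at 8.23 in MuSK-null against 4.64 in wild-type cells. These shifts stand beside the genotype and stage comparisons below, and their part in the members' changes was not tested. In bulk cultures, fewer cells of a type and less RNA per cell cannot be told apart.

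The members' signals spanned the range of other genes. The mean of a member over the 24 arrays had a median of 8.62 log2 units, against 7.92 for all genes, and 63 of 67 lay at or above the dim level. Epha5 and Epha6 were below it in all 8 groups. The share of members called (adjusted p under 0.05) exceeded the share of all genes in each of the 11 comparisons, as the plot of shares shows. Members are on average brighter than other genes. Among the 14953 genes at or above the dim level the members' share was again the higher in each comparison, for example 41.3% of 63 members against 14.3% of genes for BMP4 in wild-type myoblasts. No test was made of these shares.

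**Figure D1:**
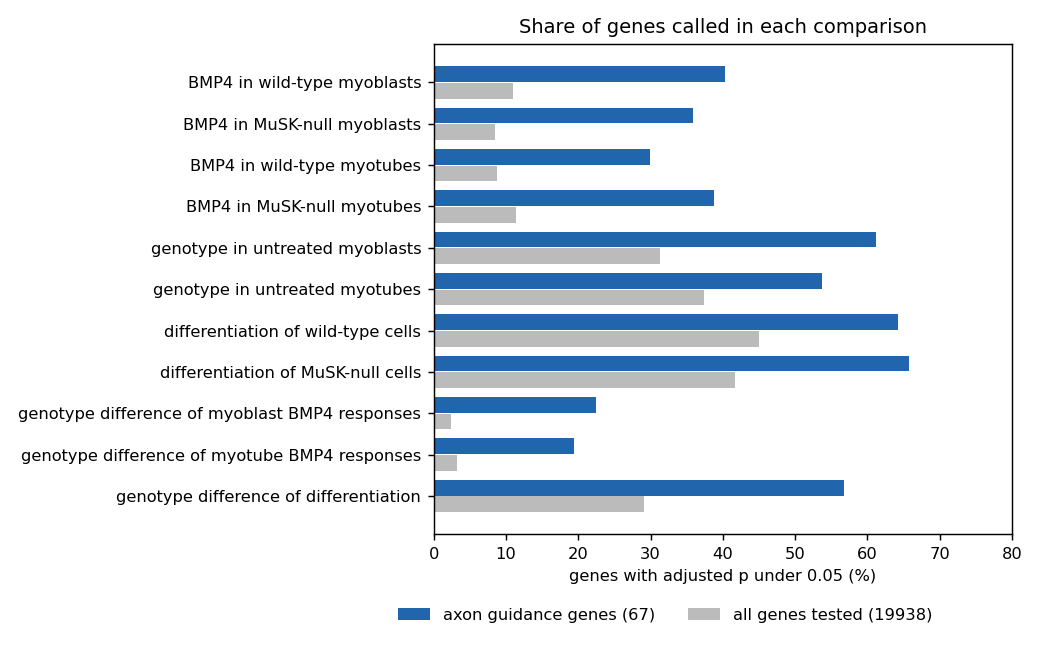
Share of genes called (%, x axis) in each of the 11 comparisons (y axis), for the 67 axon guidance genes (blue) and for all 19938 genes tested (grey). The blue bar is longer than the grey bar in every comparison, from 19.4% against 3.21% for the difference of myotube BMP4 responses to 65.7% against 41.6% for differentiation of MuSK-null cells.

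BMP4 changed 44 of the 67 members in at least 1 of the 4 kinds of culture (65.7%, against 21.4% of all genes). In wild-type myoblasts 27 members were called, 16 higher and 11 lower (40.3%, against 11.0% of all genes, 5.21% higher and 5.76% lower). In MuSK-null myoblasts 24 were called, 16 higher and 8 lower (35.8%, against 8.42%, 3.89% higher and 4.52% lower). In wild-type myotubes 20 were called, 12 higher and 8 lower (29.9%, against 8.77%, 4.40% higher and 4.37% lower), and in MuSK-null myotubes 26, 12 higher and 14 lower (38.8%, against 11.3%, 5.36% higher and 5.90% lower). Without the 4 deviating arrays the myoblast counts were 24 and 23. The median change of the members was near 0 in all 4 (0.01, 0.01, 0.05 and -0.04 log2 units). The 4 comparisons share no arrays. Unc5b, Unc5c, Sema6d and Efna3 rose in all 4, which is 5.97% of members against 1.06% of all genes. Sema6a fell in all 4, which is 1.49% of members against 0.913% of all genes. The other calls depended on line and stage. In different cultures 217 of the 19938 genes were called in opposite directions, among them 6 of the 67 members. Some of these calls were lost on leaving out 1 array, namely both myoblast calls of Efnb2 and the wild-type myotube call of Sema3a, whose values stand with these genes, and those of Plxnc1 in wild-type myoblasts (0.47, adjusted p = 0.0542 without replicate 2 of the treated group) and Sema3c in MuSK-null myotubes (0.21, adjusted p = 0.125 without replicate 3 of the treated group).

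Among the receptors, the Unc5 genes gave the largest rise. Unc5b, a receptor through which netrins repel axons, had signals of 10.46, 9.99 and 10.49 in untreated and 12.23, 12.29 and 12.01 in BMP4-treated wild-type myoblasts. In MuSK-null myoblasts they were 11.00, 10.73 and 10.91 against 12.52, 12.27 and 12.44. In wild-type myotubes they were 10.41, 10.35 and 10.43 against 11.38, 11.43 and 11.32, and in MuSK-null myotubes 10.46, 10.51 and 10.38 against 11.68, 11.65 and 11.80. Every treated array lay above every untreated array of its kind, and in fact above all 12 untreated arrays. The rises were 1.87 ± 0.11 (adjusted p = 1.22e-11), 1.53 ± 0.11 (adjusted p = 3.92e-10), 0.98 ± 0.11 (adjusted p = 7.18e-07) and 1.26 ± 0.11 (adjusted p = 1.03e-08), or 3.65-, 2.89-, 1.97- and 2.39-fold. The low untreated wild-type value of 9.99 belongs to a deviating array, and without the 4 such arrays the rises in myoblasts were 1.79 and 1.52. The gene lies on chromosome 10 (60762594 to 60831581, GRCm38.p6).

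Unc5c, a paralog with the same netrin-receptor role, moved the same way by less. Its signals were 10.91, 10.73 and 10.79 without and 11.20, 11.16 and 11.05 with BMP4 in wild-type myoblasts, and 9.45, 9.38 and 9.59 against 9.92, 9.71 and 9.93 in MuSK-null myoblasts. In myotubes they were 9.84, 9.89 and 9.75 against 10.50, 10.47 and 10.41 (wild type) and 9.75, 9.79 and 9.72 against 10.36, 10.39 and 10.38 (MuSK-null). The arms did not overlap in any of the 4. The rises were 0.33 ± 0.07, 0.38 ± 0.07, 0.63 ± 0.07 and 0.62 ± 0.07 log2 units (± SE). Unc5a, another netrin receptor, went the other way in myotubes, falling by 0.40 and 0.41 (adjusted p = 0.00289 and 0.00171), and Unc5d was not called in any BMP4 comparison. Of the 4 netrin ligands, 1 was called with BMP4 in at least 1 culture, as were 21.4% of all genes. Ntn1, the classical netrin, was called only in wild-type myoblasts (-0.20, adjusted p = 0.0474), a call lost without the deviating arrays (-0.20, adjusted p = 0.116), and Ntn4, a laminin-binding netrin, changed by -0.20, -0.07, -0.23 and -0.16 with no call.

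The class 6 semaphorins, membrane-bound ligands of the A plexins, split. Sema6d had signals of 7.74, 7.63 and 7.72 in untreated wild-type myoblasts and 9.31, 9.29 and 9.07 with BMP4, a 2.88-fold rise. MuSK-null myoblasts started higher, at 9.51, 9.25 and 9.46, and reached 10.29, 9.98 and 10.39. In myotubes the values were 7.92, 7.74 and 7.84 against 9.01, 8.96 and 8.88 and 8.45, 8.49 and 8.39 against 9.19, 9.06 and 9.18. Untreated MuSK-null myoblasts thus stood about as high as BMP4-treated wild-type ones. The rises were 1.53 ± 0.09 (adjusted p = 3.31e-11), 0.81 ± 0.09 (adjusted p = 7.93e-07), 1.11 ± 0.09 (adjusted p = 9.85e-09) and 0.70 ± 0.09 (adjusted p = 6.49e-06). Sema6b, of the same class, rose by 0.46 and 0.59 in the myotubes and by 0.33 in wild-type myoblasts, the last call being lost without the deviating arrays (0.38, adjusted p = 0.0926), and changed by 0.00 in MuSK-null myoblasts. Its 2 probe sets hold equal values and count once. Sema6c was called in MuSK-null myotubes (-0.43, adjusted p = 0.00515, or 0.0606 without replicate 2 of the treated group).

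Sema6a fell where Sema6d rose. It stood at 12.06, 11.96 and 12.20 in untreated wild-type myoblasts and dropped to 10.74, 10.81 and 10.49 with BMP4. In MuSK-null myoblasts it went from 9.97, 9.65 and 9.99 to 8.73, 8.27 and 8.64. In myotubes it went from 11.88, 11.89 and 11.89 to 11.33, 11.28 and 11.25 and from 10.70, 10.69 and 10.65 to 9.66, 9.77 and 9.84. No treated array reached an untreated one of its kind, and the fall was larger in myoblasts (-1.39 ± 0.11 and -1.33 ± 0.11) than in myotubes (-0.59 ± 0.11 and -0.93 ± 0.11), a difference between stages that was not tested. Plxna4, a plexin that binds class 6 and class 3 semaphorins, rose only where the cells were wild type, from 7.27, 7.09 and 7.18 to 8.34, 8.19 and 7.92 in myoblasts and from 7.51, 7.63 and 7.81 to 8.47, 8.55 and 8.30 in myotubes. In the MuSK-null cells it changed by 0.27 and 0.13 with no call, and the difference between the lines was itself called at both stages.

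**Figure D2:**
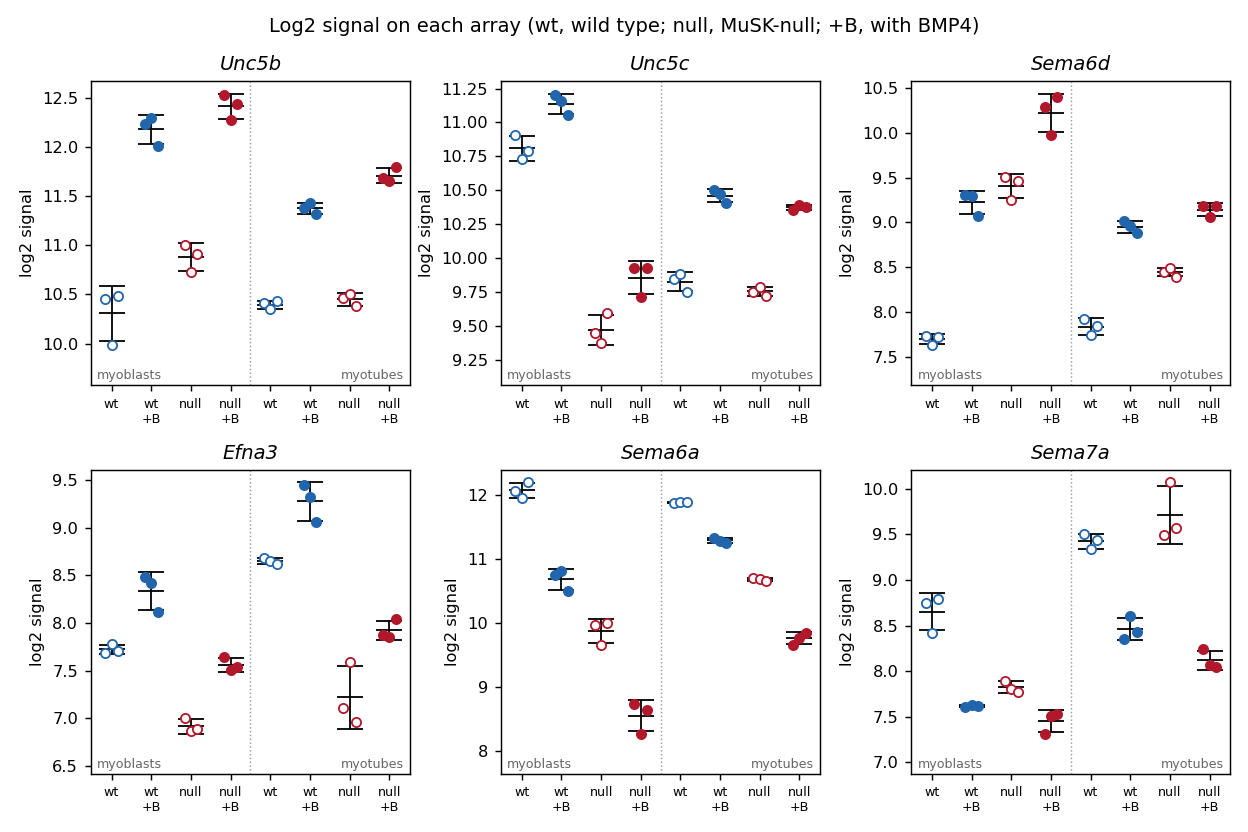
Log2 signal (y axis) on each of the 24 arrays for 6 members, by group (x axis: wt, wild type in blue; null, MuSK-null in red; +B, filled, with BMP4; myoblasts left and myotubes right of the dotted line), with bars for mean and SD (n = 3). Unc5b, Unc5c, Sema6d and Efna3 are higher and Sema6a lower with BMP4 in each of the 4 cultures, and Sema7a reaches 7.32 to 8.60 on treated arrays from 7.78 to 10.07 on untreated arrays.

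Of the ephrins, the ligands of Eph receptors, none was called lower with BMP4 in MuSK-null cells or in myotubes. Efna3 had signals of 7.69, 7.78 and 7.70 against 8.48, 8.42 and 8.11 in wild-type myoblasts, and 7.01, 6.86 and 6.88 against 7.64, 7.50 and 7.54 in MuSK-null ones. In myotubes they were 8.68, 8.65 and 8.62 against 9.45, 9.32 and 9.05 and 7.11, 7.59 and 6.96 against 7.87, 7.85 and 8.04. The arms were apart in all 4, with rises of 0.61 ± 0.12, 0.64 ± 0.12, 0.62 ± 0.12 and 0.70 ± 0.12. Efna2 rose by 0.50, 0.51 and 0.64 in the first 3 cultures and changed by 0.27 without a call in MuSK-null myotubes. In wild-type myoblasts 2 of the 8 ephrins were called higher and 1 lower (5.21% and 5.76% of all genes). In wild-type myotubes 2 were called higher and 0 lower (4.40% and 4.37% of all genes). In MuSK-null myotubes the counts were also 2 and 0 (5.36% and 5.90% of all genes). In MuSK-null myoblasts 6 were called higher and 0 lower (3.89% and 4.52% of all genes), among them Efna5 (0.46 ± 0.11, adjusted p = 0.0052). Efna5 changed by 0.29, 0.33 and 0.30 elsewhere, without a call. Efnb2, an ephrin-B, rose in the MuSK-null line, by 0.31 ± 0.07 (adjusted p = 0.0073) in myoblasts, or with an adjusted p of 0.0509 without replicate 3 of the treated group, and by 0.64 ± 0.07 (adjusted p = 9.24e-07) in myotubes. It was lower in wild-type myoblasts (-0.23, adjusted p = 0.0425 in limma's fit, not called when any of 5 of the 6 arrays compared was left out).

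Among the Eph receptors, Epha2 and Epha7 responded in 3 cultures each. Epha7 had signals of 8.70, 8.79 and 8.72 in untreated and 9.69, 9.61 and 9.55 in BMP4-treated wild-type myotubes. It rose by 0.68 ± 0.07, 0.55 ± 0.07 and 0.88 ± 0.07, but in MuSK-null myotubes, where it started at 9.87, 9.91 and 9.79, it changed by 0.11 ± 0.07 with no call. Epha2 rose by 0.62 ± 0.08, 0.75 ± 0.08 and 0.54 ± 0.08, and changed by 0.22 without a call in wild-type myotubes. Epha4, which binds both ephrin classes and is known from motor axons, was called only in the MuSK-null line (0.35 and 0.35). Both calls were lost on leaving out 1 array, for example with an adjusted p of 0.0936 without replicate 2 of BMP4-treated MuSK-null myoblasts and 0.0777 without replicate 3 of BMP4-treated MuSK-null myotubes. Ephb3 was lower in 3 cultures, with changes of -0.27, -0.28 and -0.34, of which the first was lost without the deviating arrays (-0.23, adjusted p = 0.0823) and the second with only the compared groups in the fit (adjusted p = 0.0554).

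Several other semaphorins and plexins fell. Sema7a, a membrane-anchored semaphorin that binds Plxnc1 and integrins, had signals of 8.74, 8.42 and 8.79 in untreated and 7.60, 7.63 and 7.62 in BMP4-treated wild-type myoblasts. In wild-type myotubes these were 9.50, 9.34 and 9.44 against 8.36, 8.60 and 8.43, and in MuSK-null myotubes 9.49, 10.07 and 9.57 against 8.24, 8.07 and 8.05. The arms were well apart in these 3 cultures, and the change of -1.59 ± 0.12 (adjusted p = 1.18e-09) in MuSK-null myotubes (3.02-fold) was the largest fall of any member with BMP4. In MuSK-null myoblasts, which started at 7.89, 7.80 and 7.78, the change was -0.37 ± 0.12 (adjusted p = 0.051). Sema5a fell by 0.96 ± 0.06 in wild-type myoblasts and by 0.98 ± 0.06 in MuSK-null myotubes. Its changes in the other cultures were -0.25 (adjusted p = 0.0134, or 0.104 without replicate 3 of the treated group) and -0.20, which was not called.

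Sema4c, a ligand of Plxnb2, was called lower in both kinds of myotubes (-0.69 ± 0.07 and -0.61 ± 0.07) and in neither kind of myoblasts (-0.18 and -0.20). Its receptor gene Plxnb2 (group means of 11.81 to 12.10) was called in no comparison. Sema3e, which signals through Plxnd1 without a neuropilin, fell by 0.76 ± 0.07 in wild-type myoblasts and by 0.60 ± 0.07 in MuSK-null myotubes. Plxnd1 rose in 3 cultures, by 0.58 ± 0.11, 0.62 ± 0.11 and 0.60 ± 0.11, and changed by 0.30 ± 0.11 without a call in wild-type myoblasts. Ligand and receptor of this pair therefore moved in opposite directions in MuSK-null myotubes. Plxna1, a signalling partner of the neuropilins, fell from 12.36, 12.22 and 12.31 to 11.59, 11.48 and 11.43 in wild-type myoblasts and fell by 0.41 and 0.40 in the myotubes. Plxna2 was called in wild-type myoblasts only, where it rose from 11.37, 11.25 and 11.36 to 11.94, 11.94 and 11.77 (0.55 ± 0.06, adjusted p = 1.15e-06), and Plxna3 was called lower in the myotubes only (-0.48 and -0.62).

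Sema3a, the secreted semaphorin that satellite cells are known to make, took different directions. In MuSK-null myoblasts it fell from 10.26, 10.41 and 10.23 to 9.74, 9.87 and 9.79, and in MuSK-null myotubes it rose from 9.53, 9.54 and 9.45 to 10.18, 10.41 and 10.26. The changes were -0.50 ± 0.07 (adjusted p = 2.86e-05) and 0.78 ± 0.07 (adjusted p = 4.84e-08). In wild-type cells they were 0.16, not called, and 0.25 (adjusted p = 0.0336, or 0.14 without replicate 1 of the treated myotubes). Its coreceptor Nrp1 had group means of 9.90 to 10.72 and was called with BMP4 only in wild-type myotubes (-0.23, adjusted p = 0.04, or 0.0685 without the same array). Nrp2, the partner of Sema3c and Sema3f, rose in MuSK-null myoblasts, from 10.45, 10.44 and 10.48 to 10.93, 10.93 and 10.95, and fell in MuSK-null myotubes, from 9.91, 10.00 and 9.84 to 9.51, 9.54 and 9.67. Among the Slits, Slit2 rose in 3 cultures, by 0.32 ± 0.07, 0.50 ± 0.07 and 0.67 ± 0.07, and changed by -0.07 ± 0.07 in wild-type myotubes. Slit3 was called in wild-type myoblasts only (0.24, adjusted p = 0.0422, or 0.201 without replicate 1 of the treated group). The receptor Robo1 fell in MuSK-null myotubes (-0.43 ± 0.07, adjusted p = 0.000107) and Robo2 in MuSK-null myoblasts (-0.95 ± 0.09, adjusted p = 1.14e-07).

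**Figure D3:**
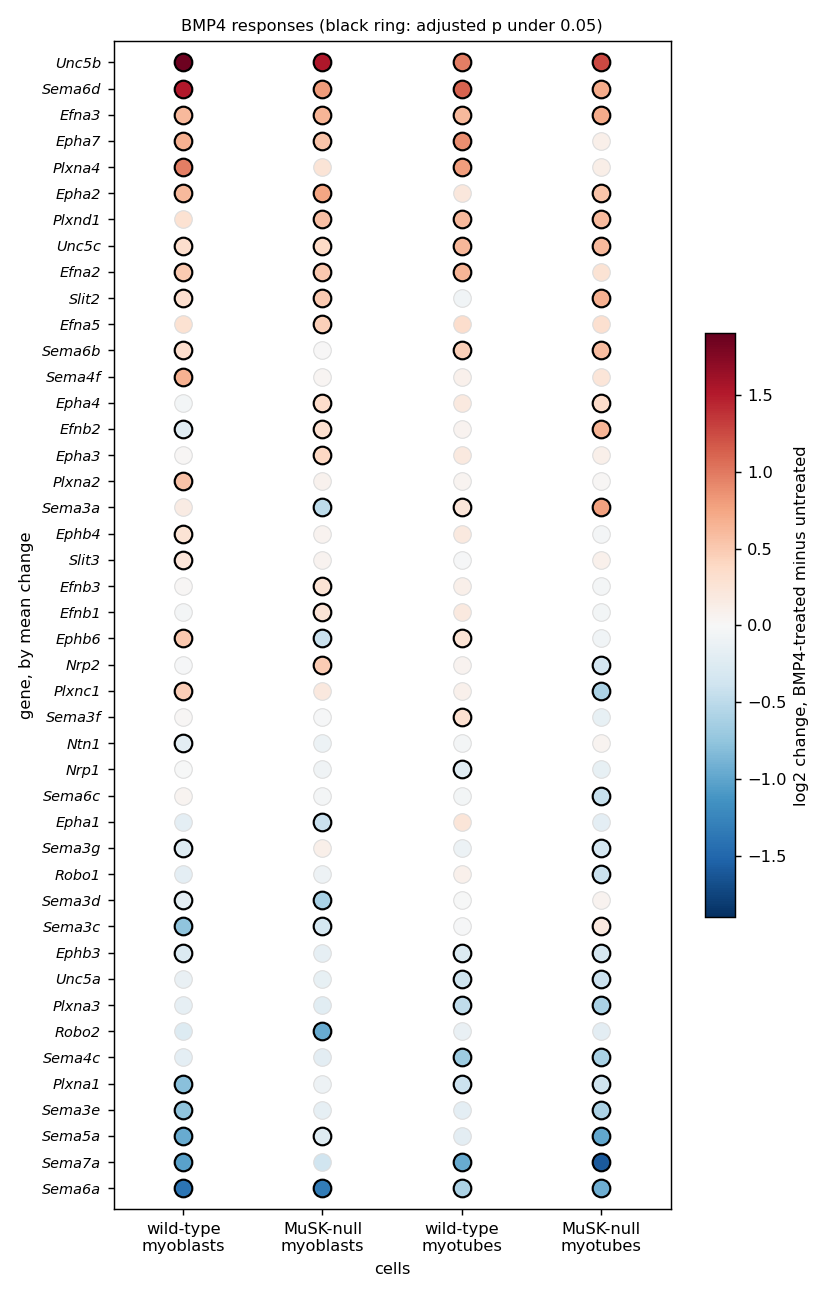
Log2 change with BMP4 (colour, BMP4-treated minus untreated) of the 44 members called in at least 1 of the 4 cultures (columns), ordered by mean change (rows); a black ring marks an adjusted p under 0.05. Unc5b, Sema6d and Efna3 head the list and carry 4 rings each, Sema6a closes it with 4 rings, and Efnb2, Ephb6, Nrp2, Plxnc1, Sema3a and Sema3c hold ringed points of both colours.

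The interaction contrasts asked whether the BMP4 response differed between MuSK-null and wild-type cells. In myoblasts 15 members differed, 7 of them responding more positively in MuSK-null cells and 8 less (22.4%, against 2.39% of all genes, 1.17% and 1.22% by direction), and 10 were called without the deviating arrays. Ephb6, an Eph receptor without kinase activity, showed the largest difference. It went from 8.99, 8.98 and 9.04 to 9.53, 9.56 and 9.45 in wild-type myoblasts and from 9.93, 9.91 and 9.94 to 9.47, 9.56 and 9.49 in MuSK-null ones, so the lines began apart and met with BMP4. The difference of responses was -0.93 ± 0.09 (adjusted p = 7.8e-07). Plxna1 and Sema5a fell in wild-type myoblasts and less or not at all in MuSK-null ones, with differences of 0.70 ± 0.10 (adjusted p = 0.000128) and 0.71 ± 0.09 (adjusted p = 4.25e-05). Sema6d and Plxna4 rose less in MuSK-null myoblasts, with differences of -0.71 ± 0.13 and -0.70 ± 0.15. Sema3a and Robo2 were called lower only in the MuSK-null line, with differences of -0.66 ± 0.10 and -0.69 ± 0.13. The latter was not called without the deviating arrays (-0.60, adjusted p = 0.0677). Robo2 also stood lower with BMP4 in wild-type myoblasts, without a call (mean of 7.63, against 7.97, 7.88 and 7.85 untreated).

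In myotubes 13 members differed, 3 higher and 10 lower (19.4%, against 3.21% of all genes, 1.50% and 1.71% by direction). Slit2 was 9.68, 9.69 and 9.64 in untreated and 9.62, 9.67 and 9.53 in treated wild-type myotubes, and 10.17, 10.30 and 10.15 against 10.82, 11.02 and 10.80 in MuSK-null myotubes. It thus responded only in the latter, and the difference was 0.74 ± 0.10 (adjusted p = 8.43e-05). Efnb2 followed the same pattern and Sema3a rose more in MuSK-null than in wild-type myotubes, with differences of 0.58 ± 0.10 (adjusted p = 0.00155) and 0.53 ± 0.10 (adjusted p = 0.00315). Sema5a fell from 8.30, 8.28 and 8.20 to 7.30, 7.22 and 7.30 in MuSK-null myotubes against 9.72, 9.74 and 9.75 to 9.47, 9.66 and 9.48 in wild type (-0.78 ± 0.09, adjusted p = 9.27e-06). The sign for Sema5a is opposite to that in myoblasts. Epha7 and Plxna4 responded in wild-type myotubes alone, with differences of -0.77 ± 0.10 (adjusted p = 3.17e-05) and -0.66 ± 0.15 (adjusted p = 0.0142), the latter with an adjusted p of 0.0515 without replicate 1 of the untreated wild-type myotubes.

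Genotype in the absence of BMP4 was compared next. In untreated myoblasts 41 members were called, 21 higher and 20 lower in MuSK-null cells (61.2%, against 31.3% of all genes). In untreated myotubes 36 were called, 19 higher and 17 lower (53.7%, against 37.4%). These counts stand beside the shifts of muscle and fibroblast markers given above. The 2 comparisons share no arrays. In both, 10 members were higher (14.9%, against 7.06% of all genes) and 8 lower (11.9%, against 7.44%), and 6 members were called in opposite directions, as were 944 of all genes. Same-numbered untreated myoblast arrays deviated together (correlations of 0.292, 0.421 and 0.223), and with the replicate number as a block the count was again 41.

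Lower in the MuSK-null line at both stages were Sema6a, Sema5a and Efna3. Sema5a was 8.99, 8.89 and 8.96 in wild-type and 6.76, 6.90 and 6.79 in MuSK-null myoblasts, a difference of -2.13 ± 0.06 (adjusted p = 1.55e-17), or 4.37-fold, and differed by -1.48 ± 0.06 in myotubes. Sema6a differed by -2.20 ± 0.11 and -1.20 ± 0.11. Efna3 differed by -0.81 ± 0.12 and -1.44 ± 0.12. In both lines BMP4 thus moved Sema6a and Efna3 from different starting levels. Higher at both stages were Sema6d (1.71 ± 0.09 and 0.61 ± 0.09), Ephb6 (0.93 ± 0.06 and 0.67 ± 0.06) and Plxna2 (0.65 ± 0.06 and 0.53 ± 0.06). Both neuropilins were also higher at both stages, Nrp2 by 0.61 ± 0.06 and 0.17 ± 0.06 and Nrp1 by 0.21 ± 0.07 and 0.43 ± 0.07. The myotube call of Nrp2 was lost on leaving out any of 3 arrays (for example adjusted p = 0.0557 without replicate 1 of the MuSK-null myotubes), and the myoblast call of Nrp1 without replicate 1 of the MuSK-null (adjusted p = 0.145) or replicate 2 of the wild-type myoblasts.

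Other members differed between the lines at 1 stage. Unc5c was 10.91, 10.73 and 10.79 in wild-type and 9.45, 9.38 and 9.59 in MuSK-null myoblasts (-1.34 ± 0.07, adjusted p = 3.67e-13), whereas the untreated myotubes differed by -0.07 ± 0.07 with no call. Epha4 was higher in MuSK-null myoblasts, at 8.11, 8.34 and 8.09 against 6.88, 6.84 and 7.07 (1.25 ± 0.09, adjusted p = 1.2e-10), and differed by 0.14 ± 0.09 in myotubes, not called. Robo2 and Slit3 were higher in MuSK-null myoblasts (0.99 ± 0.09 and 0.82 ± 0.08) and Plxnd1 and Sema4f lower (-1.07 ± 0.11 and -1.10 ± 0.11). In myotubes Sema6b, Sema6c and Epha7 were higher in the MuSK-null line (1.13 ± 0.11, 1.11 ± 0.10 and 1.12 ± 0.07) with differences of -0.15, -0.11 and -0.05 in myoblasts, none of them called. Epha3 and Epha2 turned over, Epha3 being lower in MuSK-null myoblasts (-1.94 ± 0.09) and higher in MuSK-null myotubes (1.05 ± 0.09), and Epha2 the reverse (0.44 ± 0.08 and -1.40 ± 0.08).

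Differentiation, the step from myoblasts to myotubes, changed about as many members in each line. In wild-type cells 43 were called, 20 higher and 23 lower in myotubes (64.2%, against 45.0% of all genes), and in MuSK-null cells 44, 21 higher and 23 lower (65.7%, against 41.6%). In both lines 12 members rose (17.9%, against 11.4% of all genes) and 14 fell (20.9%, against 15.1%), while 8 members, and 703 of the 19938 genes, were called in opposite directions (Epha2, Epha4, Epha7, Robo2, Sema3f, Sema3g, Sema6b and Unc5c). The wild-type calls of Robo2, Sema3f and Sema6b were lost without replicate 2 of the untreated wild-type myoblasts, 1 of the deviating arrays (adjusted p = 0.0885, 0.0511 and 0.0628). The muscle markers rose over this step too, by a median of 0.83 log2 units in wild-type and 2.45 in MuSK-null cells, with 10 of 11 called higher in each. The 2 lines share no arrays here.

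Changes common to both lines included a rise of Sema3b, a secreted semaphorin, from 8.27, 8.21 and 8.23 to 10.02, 9.87 and 10.05 in wild-type and from 7.83, 7.88 and 8.02 to 9.47, 9.73 and 9.53 in MuSK-null cells. No myotube array came near a myoblast array, and the rises of 1.74 ± 0.08 and 1.67 ± 0.08 differed by -0.07 (95% interval -0.30 to 0.16) with no call. Sema7a rose by 0.77 ± 0.12 and 1.89 ± 0.12, Sema5a by 0.79 ± 0.06 and 1.44 ± 0.06, Sema6c by 0.98 ± 0.10 and 2.21 ± 0.10, Sema3c by 0.70 and 0.75, Ephb3 by 0.89 and 0.59, and Slit3 by 1.09 and 0.38. Of the 8 ephrins, 4 fell and 2 rose in wild-type cells and 4 fell and 3 rose in MuSK-null cells. Of all genes, 24.7% fell and 20.3% rose in wild-type cells, and 23.4% fell and 18.2% rose in MuSK-null cells. Efnb2 went from 10.79, 10.58 and 10.75 to 8.94, 8.99 and 8.86 in wild-type and from 9.83, 9.77 and 9.83 to 9.04, 8.91 and 8.78 in MuSK-null cells, so that the lines differed in myoblasts and met in myotubes. Efna1, Efna4 and Efna5 fell in both lines, Efna5 by 1.27 and 0.87. Of the receptors, Ephb6 (-1.03 and -1.29), Ephb4 (-0.92 and -0.64) and Robo1 (-0.23 and -0.43) fell in both.

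The lines diverged most in Sema4d, Ntn5 and Epha3. Sema4d, whose receptor is Plxnb1, had signals of 7.45, 7.64 and 7.46 in wild-type myoblasts and 10.96, 10.60 and 11.09 in wild-type myotubes. In MuSK-null cells they were 7.34, 7.28 and 7.39 and 7.94, 7.80 and 7.86. The rise was thus 10.3-fold in wild type (3.36 ± 0.12, adjusted p = 3.49e-16) against 1.44-fold in MuSK-null cells (0.53 ± 0.12, adjusted p = 0.00112), and the difference was -2.84 ± 0.18 (adjusted p = 1.35e-11). The second probe set of Sema4d gave rises of 3.48 and 0.52. BMP4 left Sema4d uncalled in all 4 cultures. Its changes were 0.012 and 0.046 in wild-type and MuSK-null myoblasts, and -0.365 and -0.187 in wild-type and MuSK-null myotubes. The second probe set gave -0.361 in wild-type myotubes. Ntn5, a member of the netrin family, also rose in wild-type cells, with signals of 6.54, 6.92 and 6.62 in wild-type myoblasts and 9.14, 9.77 and 9.56 in wild-type myotubes. Its signals in MuSK-null cells were 6.79, 6.52 and 6.56 and 6.78, 6.94 and 6.89, close to the dim level at both stages. The changes were 2.80 ± 0.15 (adjusted p = 3.24e-13) and 0.25 ± 0.15 (adjusted p = 0.221).

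Epha3, a receptor for ephrin-A5, did the reverse. It was level in wild-type cells, at 7.92, 7.91 and 8.08 in myoblasts and 7.97, 8.12 and 8.04 in myotubes. In MuSK-null cells it climbed from 6.08, 5.97 and 6.05, under the dim level, to 9.10, 9.22 and 8.96. The changes were 0.07 ± 0.09 (adjusted p = 0.559) and 3.06 ± 0.09 (adjusted p = 3.7e-18), the latter 8.33-fold, with a difference of 2.98 ± 0.13 (adjusted p = 2.22e-14). Epha2 rose in wild-type cells, from 9.18, 9.15 and 9.01 to 9.76, 9.72 and 9.85, and fell in MuSK-null cells, from 9.65, 9.54 and 9.48 to 8.35, 8.52 and 8.26 (difference -1.84 ± 0.11, adjusted p = 6.23e-12). Epha7 (-0.76 and 0.41) and Unc5c (-0.98 and 0.28) fell in wild-type and rose in MuSK-null cells. Epha4 went the opposite way (0.66 and -0.45). In all, 38 members differed between the lines in their differentiation change, 20 higher and 18 lower in MuSK-null cells (56.7%, against 29.1% of all genes). Ephb1 is among them, but its second probe set gave a wild-type change of -0.09 where the first gave 0.51, so its call rests on 1 of 2 probe sets.

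**Figure D4:**
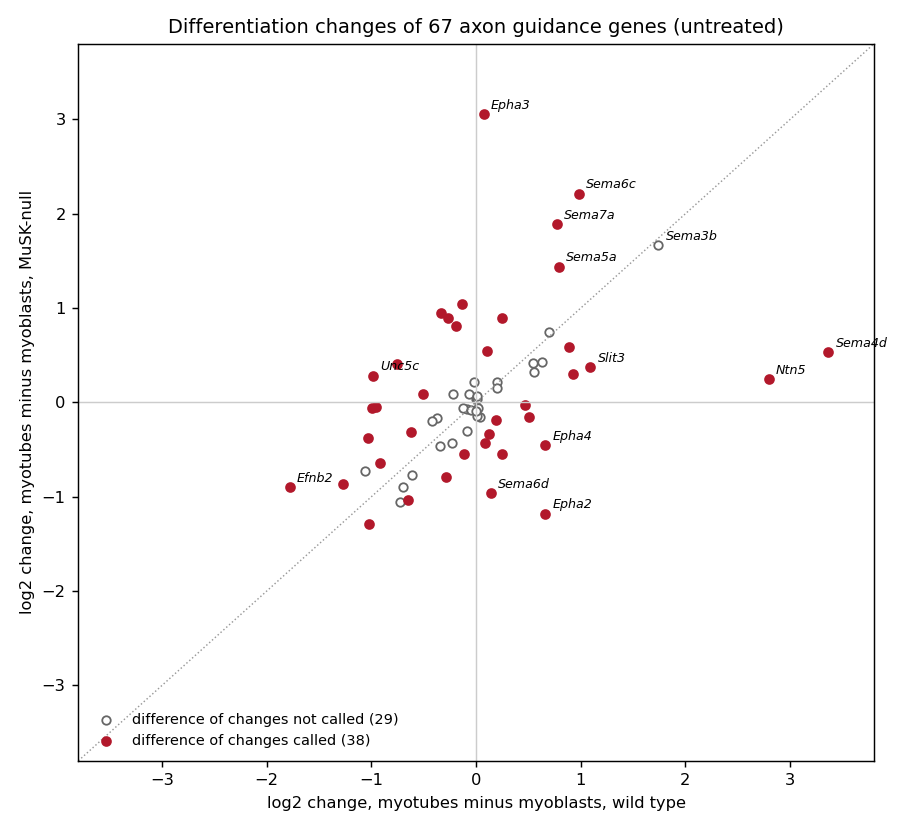
Log2 change from myoblasts to myotubes without BMP4 in wild-type cells (x axis) and MuSK-null cells (y axis) for the 67 members; the dotted line marks equal changes, and red points are the 38 members whose changes differ between the lines (adjusted p under 0.05). Sema4d and Ntn5 lie far to the right near y = 0.53 and 0.25, Epha3 lies at the top near x = 0.07, and Sema3b lies close to the dotted line.

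**Figure D5:**
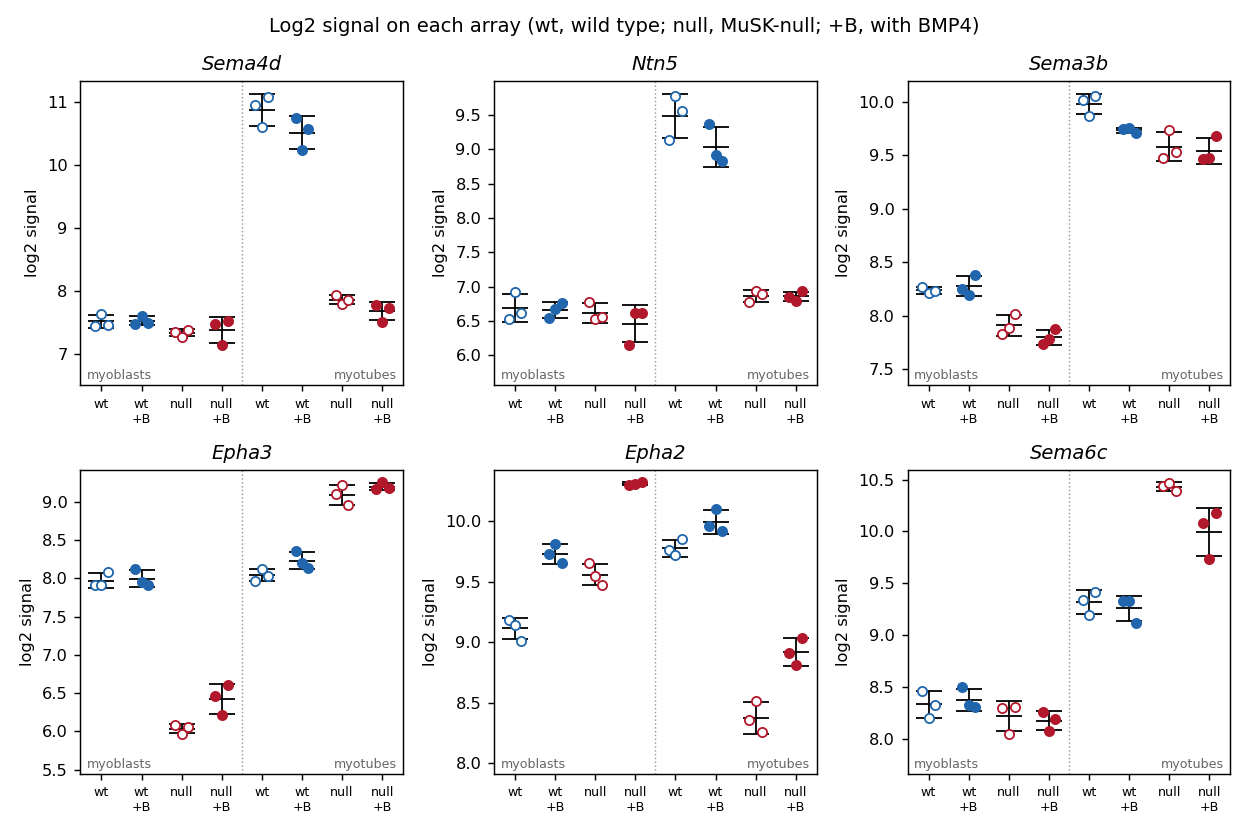
Log2 signal (y axis) on each of the 24 arrays for 6 members, by group (x axis and symbols as in the plot of BMP4 responders), with bars for mean and SD (n = 3). Sema4d and Ntn5 stand apart in the 6 wild-type myotube arrays, Epha3 is lowest in MuSK-null myoblasts and highest in MuSK-null myotubes, and Sema3b is high in all myotubes.

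At the other end, 12 members were called in none of the 11 comparisons (17.9%, against 35.3% of all genes). They were the Eph receptors Epha5, Epha6, Epha8 and Epha10, the semaphorins Sema4a, Sema4g and Sema5b, the receptors Robo3, Robo4 and Plxnb2, and the ligands Ntn3 and Slit1. Apart from Plxnb2, their group means lay between 5.14 and 7.62. For these probe sets a missing call does not show that the gene did not change.

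The coreceptors and intracellular effectors of these pathways were examined as a list of 58 measured genes. BMP4 raised 4 and lowered 9 in wild-type myoblasts, 5 and 10 in MuSK-null myoblasts, 7 and 7 in wild-type myotubes and 8 and 12 in MuSK-null myotubes (22.4%, 25.9%, 24.1% and 34.5% called, against 11.0%, 8.42%, 8.77% and 11.3% of all genes). Dpysl3, a collapsin response mediator downstream of semaphorins, rose in all 4 cultures (0.76, 1.36, 0.77 and 0.53). Flrt2, a ligand of Unc5 receptors, also rose in all 4 (0.74, 0.64, 0.52 and 0.54), alongside Unc5b and Unc5c. Rgmb, a BMP coreceptor that binds neogenin, fell in all 4 (-0.89, -0.68, -0.85 and -0.84). Its relative Rgma fell in 3 (-1.22, -1.14 and -0.58) and changed by -0.13 in MuSK-null myoblasts, with a called difference between the myoblast responses of 1.09. Differentiation changed 41 of the 58 in each line (70.7%, against 45.0% and 41.6% of all genes), led by the actin-binding gene Ablim3 (2.87 and 5.34) and the Rac regulator Chn2 (1.61 and 3.89). Genotype called 32 and 38 of them in myoblasts and myotubes (55.2% and 65.5%, against 31.3% and 37.4%).

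A second list held 27 measured genes for other muscle-derived factors that act on nerve. With BMP4, 3 rose and 7 fell in wild-type myoblasts, 4 and 2 in MuSK-null myoblasts, 6 and 3 in wild-type myotubes and 3 and 6 in MuSK-null myotubes (37.0%, 22.2%, 33.3% and 33.3% called, against 11.0%, 8.42%, 8.77% and 11.3% of all genes). The neurotrophin Bdnf rose in all 4 (0.63, 0.49, 0.46 and 0.35), as did the growth factor Hgf (0.95, 0.35, 0.63 and 1.24). The laminin gene Lama5 fell in all 4 (-0.57, -0.36, -0.36 and -0.24). Hgf also set the lines apart, rising by 1.24 on differentiation of wild-type cells and falling by 2.52 in MuSK-null cells. Ptn, a neurite-promoting factor, was 4.52 and 3.64 log2 units higher in untreated MuSK-null myoblasts and myotubes.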

How the data were processed

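RNA of 24 samples was hybridised to Affymetrix gene arrays, 1 array a sample. The deposited log2 signals were already normalised by the authors. The submitters' processing notes name Affymetrix Expression Console and Partek, without versions; the normalisation method is unstated in the labels. Of 35556 probe sets, 21789 name 1 gene, 1621 several and 12146 none. Only the first were used, and 21698 of these matched a RefSeq gene ID. Of the 999 genes with several probe sets, the set with the highest mean was kept, which left 19938 genes.

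Group means were fitted to all 24 arrays with limma 3.58.1 (R 4.3.3), with 16 residual degrees of freedom. Every adjusted p is limma's moderated test after Benjamini-Hochberg adjustment over 19938 genes, and a gene was called under 0.05. Changes are treated minus untreated, MuSK-null minus wild type, or myotubes minus myoblasts. A ± beside a change is its SE (n = 3 arrays a group), and folds of falls are the inverse. Precision is limited by how many arrays a group has. The fit was tested on simulated data.

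Named genes were those called with non-overlapping arms, up to 8 largest each way in a comparison, 16 measured genes listed by name, any other member by its level, and from both further lists up to 3 largest called changes each way. The text uses fewer. Ablim3, Chn2, Lama5 and others of those lists are examples. Members and lists were chosen with earlier results of these data known. Alternatives were quantile normalisation, median centring, no dim genes, trended robust moderation, only the compared groups, the mean of probe sets, a replicate block and leaving out each array. The 2 alternatives for the 4 deviating arrays (without them, or with a term for them) were chosen after seeing the data. Same-numbered arrays of both groups deviated together in 2 comparisons, BMP4 in MuSK-null myoblasts (correlations of 0.203, 0.46 and 0.116) and genotype in untreated myoblasts. With the replicate block the member counts there were 24 and 41, as without it.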

Additional observations from a re-analysis of the deposited data

Results flagged for a closer look

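The members below are set out because an effect differed between the MuSK-null and the wild-type line by the test of the difference itself (limma, adjusted p under 0.05). Where more members differed in a direction, those listed are the largest 8. In myotubes 10 had the lower effect, Ephb6 and Sema3e being the others, and for differentiation 20 had the higher and 18 the lower effect. Each value is the MuSK-null effect minus the wild-type effect in log2 units.

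In the myoblast response to BMP4, the MuSK-null effect was the higher for Sema5a (0.71), Plxna1 (0.70), Sema7a (0.66), Sema3e (0.58), Efnb2 (0.54), Nrp2 (0.50) and Sema3c (0.43). It was the lower for Ephb6 (-0.93), Sema6d (-0.71), Plxna4 (-0.70), Robo2 (-0.69), Sema3a (-0.66), Sema4f (-0.64), Plxna2 (-0.47) and Sema3d (-0.41).

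In the myotube response to BMP4, the MuSK-null effect was the higher for Slit2 (0.74), Efnb2 (0.58) and Sema3a (0.53). It was the lower for Sema5a (-0.78), Epha7 (-0.77), Plxnc1 (-0.70), Plxna4 (-0.66), Sema7a (-0.63), Robo1 (-0.52), Sema3f (-0.47) and Nrp2 (-0.42).

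In the change from myoblasts to myotubes, the MuSK-null effect was the higher for Epha3 (2.98), Sema6b (1.28), Unc5c (1.27), Sema6c (1.23), Plxnc1 (1.18), Epha7 (1.17), Sema3g (1.16) and Sema7a (1.11). It was the lower for Sema4d (-2.84), Ntn5 (-2.55), Epha2 (-1.84), Epha4 (-1.11), Sema6d (-1.10), Robo2 (-0.79), Slit3 (-0.72) and Ephb1 (-0.66).

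For Robo2, Sema3c, Sema3d, Sema4f and Sema7a the myoblast difference was not called without the 4 deviating arrays. Sema7a, Plxna4, Plxnc1, Ephb6 and Sema3e lost the myotube difference on leaving out at least 1 array. The differentiation difference of Ephb1 rests on 1 of 2 probe sets. Line and genotype cannot be told apart in any of these.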

How the results depend on the processing

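Of the 327 called changes of members, 271 were called under every alternative run for them, 56 lost the call under at least 1, and 0 reversed. Of 410 changes without a call, 53 were called under some alternative. The member counts stayed within 1.5 times of their values under all of these settings. Leaving out 1 array gave 21 to 26, 20 to 24, 19 to 24 and 24 to 27 members for BMP4 (wild-type and MuSK-null myoblasts, then wild-type and MuSK-null myotubes), 37 to 40 and 34 to 36 for genotype (myoblasts and myotubes), 39 to 43 and 42 to 46 for differentiation (wild type and MuSK-null), and 13 to 15, 10 to 13 and 34 to 38 for the differences between the lines (myoblast BMP4, myotube BMP4 and differentiation).

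Among all genes, 1115 in place of 1678 were called for BMP4 in MuSK-null myoblasts with only the compared groups in the fit, and 745 in place of 477 for the difference of myoblast responses with a term for the 4 deviating arrays. The cause was not tested. Centring arrays on their median turned the split of all genes from 3058 higher and 3187 lower to 4038 and 2527 for genotype in myoblasts, and from 300 and 340 to 433 and 256 for the difference of myotube responses. With the replicate block the member counts were 26, 24, 23 and 26 for BMP4, 41 and 36 for genotype, 43 and 45 for differentiation and 15, 13 and 37 for the differences, in the same orders. In comparisons other than the pair named with the methods, samples share only a number. Probe sets under the dim level limit what a missing call can show.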
